A study of Homo sapiens with 12 samples.

Results

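The 5 genes KRT8, KRT18, KRT19, CDH1 and VIM, whose products help to tell epithelial from mesenchymal cells, were described by the histone marks around them in HepG2, a cell line grown from a human liver cancer. The members were the peaks of 3 pooled peak lists with at least 1 base within 30 kb of KRT8 (chr12:53290971-53298868, minus strand), KRT18 (chr12:53342655-53346685, plus strand), or the starts of KRT19 (chromosome 17, 39684560, minus), CDH1 (chromosome 16, 68771195, plus) and VIM (chromosome 10, 17271277, plus). Positions are in GRCh37, counted from 1. The rule found 123 peaks of 273551 on chromosomes 1 to 22 and X. They comprised 40 of 66513 H3K27ac peaks, 70 of 182592 H3K4me1 peaks and 13 of 24446 H3K4me3 peaks. The KRT8 and KRT18 windows overlap, so that 2 H3K27ac, 3 H3K4me1 and 3 H3K4me3 peaks belong to both.

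The series profiled untreated HepG2 cells by chromatin immunoprecipitation and sequencing, with 3 libraries for each of H3K27ac, H3K4me1 and H3K4me3 and 3 control libraries. The control libraries are titled as input while their antibody label names an anti-mouse immunoglobulin. Each mark has 1 pooled list, so no value below has a replicate error and no test was run. The depth of the libraries is unknown, and the controls gave no values here. The labelled liver origin could not be checked against hepatocyte markers, since no gene annotation of GRCh37 was used here.

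KRT8 and KRT18 encode keratins of opposite types that pair into the intermediate filaments of simple epithelia and are the keratin pair of hepatocytes. KRT19 encodes a small keratin that in liver marks bile duct cells. CDH1 encodes E-cadherin, which joins epithelial cells to each other. VIM encodes vimentin, the intermediate filament protein of mesenchymal cells. H3K27ac marks active promoters and enhancers, H3K4me3 mainly promoters, and H3K4me1 mainly enhancers and promoter flanks.

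By H3K4me3 and H3K27ac the 5 genes formed a graded order at their starts. The cover by H3K4me1 did not follow it, although the H3K4me1 signal values over or nearest the starts did. An H3K4me3 peak covered 4 of 5 starts, those of KRT18, KRT8, KRT19 and CDH1. H3K27ac covered 3 of 5, those of the 3 keratins, and began 85 bp downstream of the CDH1 start. H3K4me1 covered 2 of 5, those of KRT18 and KRT19, but the calls at KRT18 and CDH1 turned on few bases. The H3K4me1 peak over the KRT18 start reached 39 bp past it. At CDH1 an H3K4me1 peak ended 2 bp before the start, which lay in an H3K4me1 gap of 178 bp. At KRT8 the nearest H3K4me1 peak lay 0.163 kb upstream of the start. The VIM start lay in no peak of any list. The order of H3K4me3 signal values was KRT18, KRT8, KRT19 and CDH1. H3K27ac signal values at the same 4 genes followed the same order, with the nearest peak taken at CDH1. H3K4me1 signal values of the peak over or nearest each start did so too. They were 8.82 at KRT18, 7.21 at KRT8, 6.28 at KRT19 and 2.75 at CDH1. The signal value of a peak is as the authors' peak caller gave it, and it is used only to rank peaks within a list. A percentile below is the share of the list's peaks with a lower signal value.

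**Figure D1:**
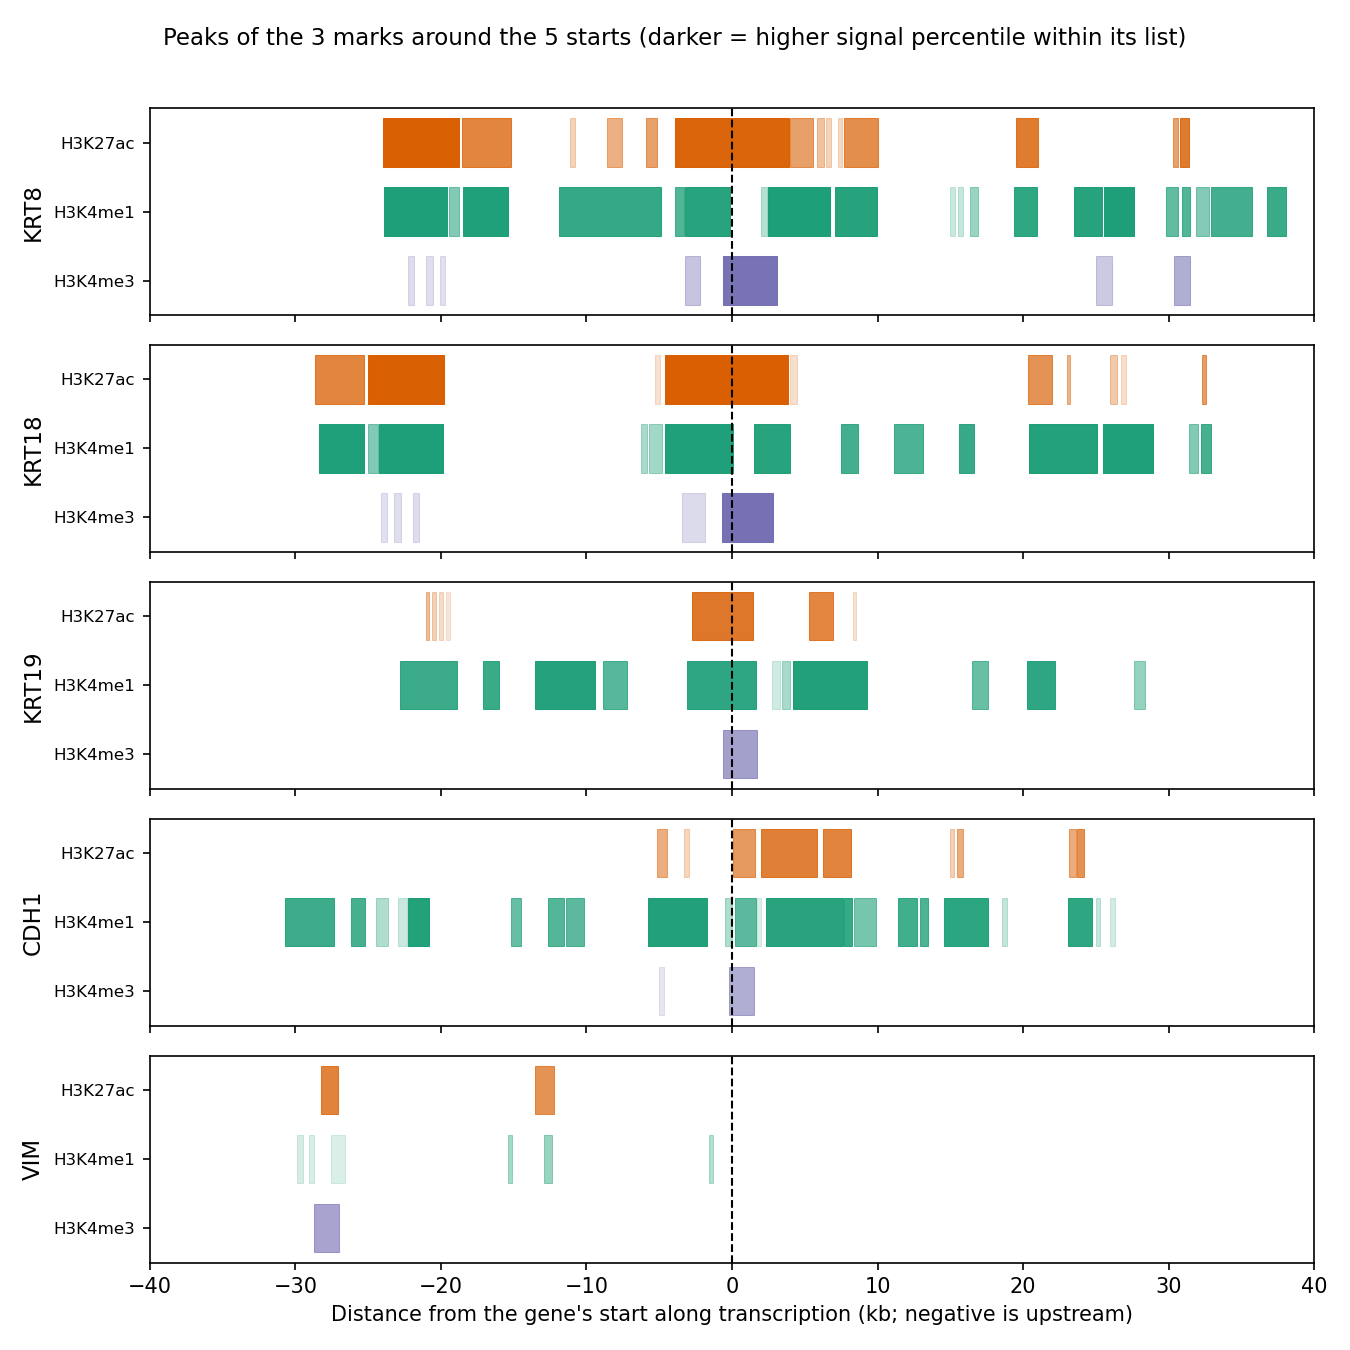
Peaks of the 3 marks around the 5 starts, 1 panel for each gene, against distance from the start along transcription in kb (negative is upstream). Each box is 1 peak and darker boxes have a higher signal percentile within their list. Peaks between KRT8 and KRT18 appear in both of their panels. The 4 epithelial genes have boxes at the start, while the VIM panel has none downstream of the start.

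KRT18 carried the highest H3K4me3 and H3K27ac signal values of the set, while the highest H3K4me1 signal value, 10.8, was in the KRT8 window. Its start lay in an H3K4me3 peak at chr12:53341958-53345501 with a signal value of 82.6, which ranked 70 in the list (percentile 99.7). The H3K27ac peak at the start spanned chr12:53338059-53346505, 8447 bp, with a signal value of 70.3 and rank 124 (percentile 99.8). That H3K27ac peak reached 4596 bp upstream and 3850 bp downstream. Peaks covered 95.9% of the KRT18 gene with H3K27ac, 70.6% with H3K4me3 and 61.3% with H3K4me1.

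KRT8 followed. The H3K4me3 peak at its start, chr12:53295746-53299511, had a signal value of 68.6 and rank 523 (percentile 97.9). The H3K27ac peak there, chr12:53294968-53302782, was 7815 bp wide, wider than 99.0% of the list, with a signal value of 35.2 (percentile 95.9). It was nearly symmetric, reaching 3914 bp upstream and 3900 bp downstream. Over the KRT8 gene, H3K27ac peaks covered 85.5%, H3K4me1 peaks 69.9% and H3K4me3 peaks 39.5%. When peaks within 1000 bp were joined, 6 H3K27ac peaks at KRT8 became 1 domain of 13964 bp, and only 361 of 43428 joined domains were as wide or wider. The KRT18 domain was 9788 bp wide, built from 3 peaks.

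KRT19 had all 3 marks over its start at lower signal. Its H3K4me3 peak, chr17:39682822-39685148, had a signal value of 26.2 (percentile 60.1), and it was the only H3K4me3 peak in its window. Its H3K27ac peak, chr17:39683118-39687342, had a signal value of 13.6 (percentile 82.0). The H3K4me1 peak, chr17:39682946-39687647, spanned the start without a break over 4702 bp and had a signal value of 6.28 (percentile 89.8). KRT19 was the only gene of the 5 at which a single H3K4me1 peak held both the start and the H3K4me3 summit.

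CDH1 differed from the keratins in where its acetylation lay over the first 15 kb downstream. The H3K4me3 peak at its start, chr16:68770973-68772698, had a signal value of 12.0, below the list's median of 13.3. The H3K27ac peak nearest the start, chr16:68771280-68772808, had a signal value of 3.76 (percentile 56.5). Stronger H3K27ac peaks followed downstream, with 9.12 at chr16:68773207-68777023 and 7.68 at chr16:68777441-68779369. These peaks lay 2.01 to 5.83 kb and 6.25 to 8.17 kb past the start and overlapped H3K4me1 without H3K4me3. CDH1 is 98.2 kb long in RefSeq (GRCh38), so that positions this close past the start fall inside the gene. Exons and introns were not analysed here. At the 3 keratins, by contrast, the H3K27ac peak over the start was stronger than each H3K27ac peak inside the first 15 kb downstream. Farther off, the KRT8 window also held a stronger H3K27ac peak than the one over its start. That peak had 67.4, beside 35.2 at the start, and lay 18.8 to 24.0 kb upstream.

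**Figure D2:**
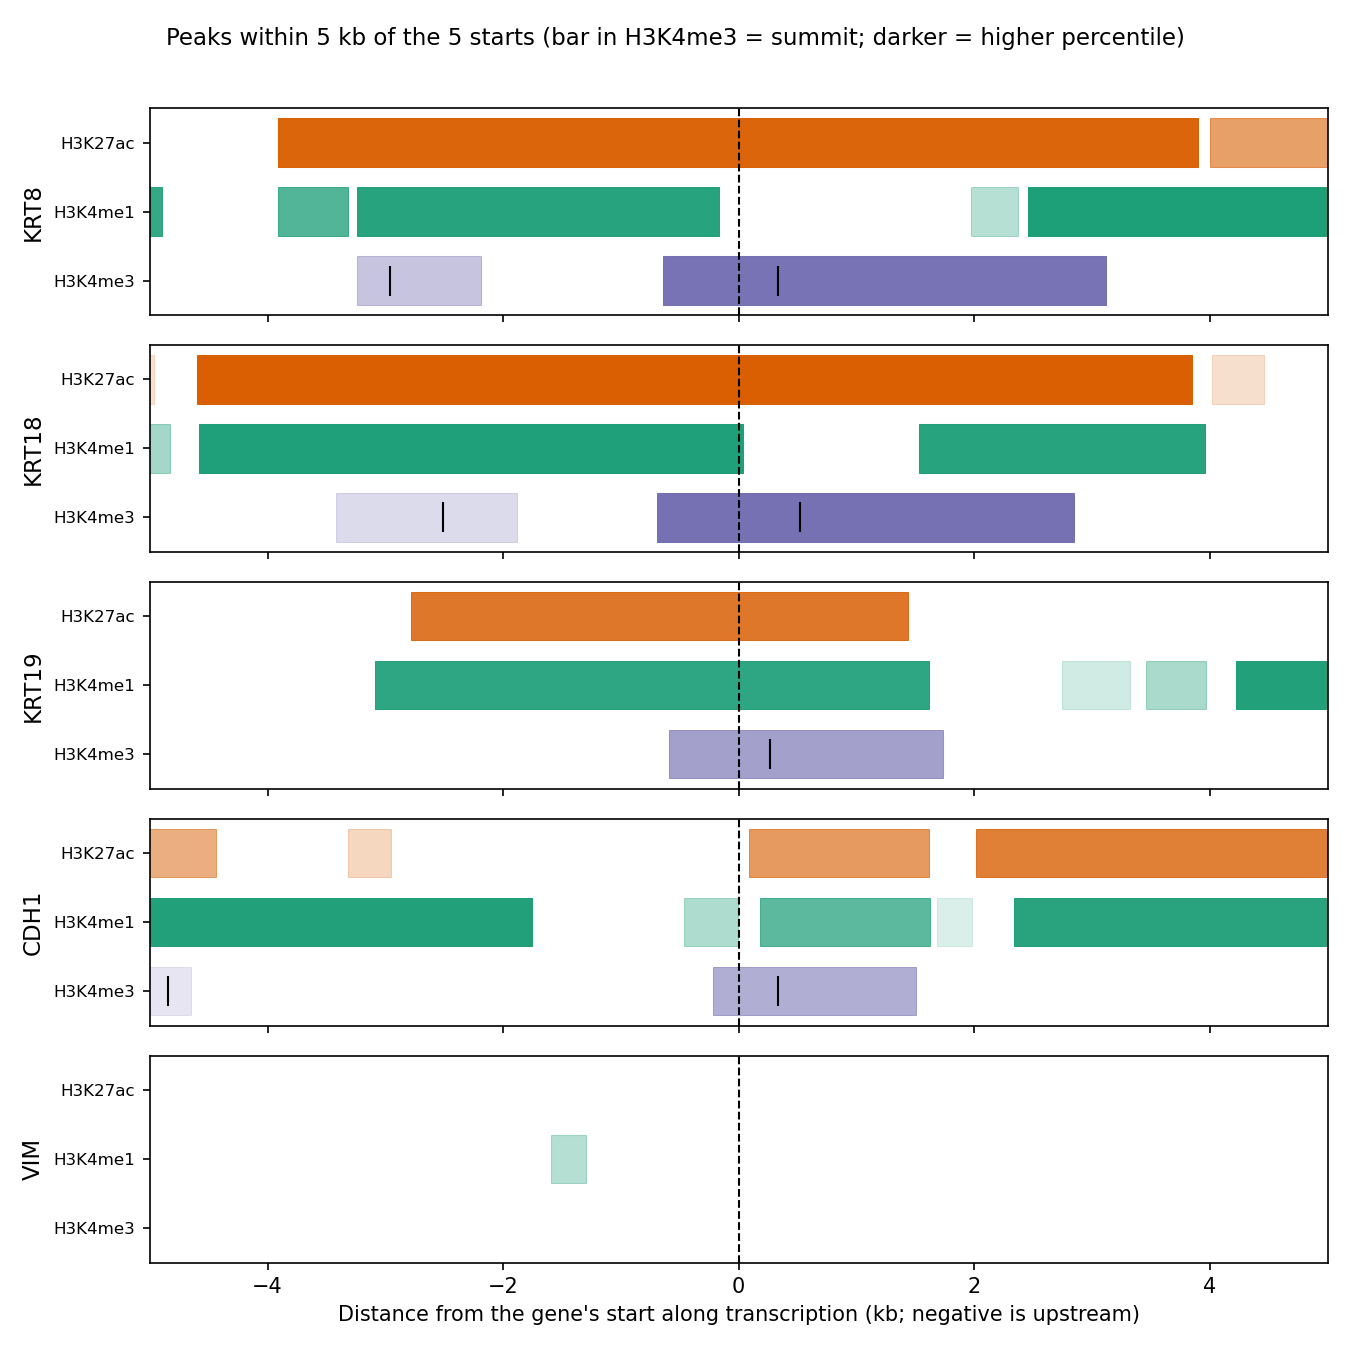
Peaks within 5 kb of each start, in the same layout and with distance in kb. The vertical bar in each H3K4me3 box is its summit. The summits of the peaks over the 4 marked starts lie 264 to 520 bp downstream, in an H3K4me1 gap at KRT8 and KRT18 but not at KRT19 and CDH1.

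The H3K4me3 summits lay on the transcribed side of all 4 marked starts, 335 bp downstream at KRT8, 520 bp at KRT18, 264 bp at KRT19 and 338 bp at CDH1. The peaks were lopsided in the same direction. At KRT8 the H3K4me3 peak reached 643 bp upstream and 3122 bp downstream, and at KRT18 697 and 2846 bp. At KRT19 the reach was 588 bp upstream and 1738 bp downstream, and at CDH1 222 and 1503 bp. H3K27ac was not lopsided in this way at the keratins, and at KRT19 it reached further upstream (2782 bp) than downstream (1442 bp).

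H3K4me1 at these summits split the genes into pairs. At KRT8 the H3K4me3 summit fell into an H3K4me1 gap of 2135 bp, from 162 bp upstream to 1972 bp downstream of the start. At KRT18 it fell into a gap of 1487 bp that began 40 bp past the start. At KRT19 and CDH1 the summit lay inside an H3K4me1 peak. For scale, the 500 H3K4me3 peaks nearest to each gene's peak in signal rank were examined. An H3K4me1 peak held the summit in 2.40% of those near KRT18 (95% Wilson interval 1.38 to 4.15) and 3.00% of those near KRT8 (1.83 to 4.89). The shares were 16.0% near KRT19 (13.0 to 19.5) and 43.0% near CDH1 (38.7 to 47.4). These intervals cover counting error only. The sets near KRT18 (signal values 69.1 to 108.4) and KRT8 (65.7 to 73.6) share peaks. Most peaks of the KRT18 set were weaker than the KRT18 peak. The KRT8 and KRT18 summits thus had the arrangement of nearly all peaks of their strength, while the KRT19 summit had that of fewer than 1 in 5 and the CDH1 summit that of fewer than 1 in 2.

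The interval between the KRT8 and KRT18 starts of the rule held the second strongest acetylation of the set. The starts are 43.8 kb apart and the genes point away from each other. H3K27ac peaks covered 44.8% of the interval, H3K4me1 peaks 56.4% and H3K4me3 peaks 11.9%. The peak at chr12:53317651-53322857, 18.8 to 24.0 kb from the KRT8 start and 19.8 to 25.0 kb from the KRT18 start, had an H3K27ac signal value of 67.4 and rank 159. Its signal exceeded that of the KRT8 start and approached that of the KRT18 start.

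H3K4me3 over that peak was weak. It held 3 small H3K4me3 peaks, with signal values of 2.06 to 2.19 (percentiles 7.93 to 9.97), and covered 24.3% of its width. H3K4me1 covered 97.3% of its width. Of the 159 H3K27ac peaks at or above its signal value, 2 had no H3K4me3 peak stronger than these, itself included, and 1 of the 2 had none at all. The neighbouring H3K27ac peak, chr12:53314025-53317402, had a signal value of 7.53 and overlapped H3K4me1 without H3K4me3.

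RefSeq promoter sequences were matched by symbol for 2 of the 5 genes, KRT8 and VIM, and are shown because the data bear on both genes. The KRT8 sequence is of another start than the rule's, and that of VIM was not matched to the rule's start. The 2 sequences therefore do not set a marked start against an unmarked one. Each is the 250 bases before a start in GRCh38.p14, 5′ to 3′ on the gene's strand, with CG dinucleotides in capitals. The KRT8 sequence is chr12:52926470-52926719 and the VIM sequence chr10:17227991-17228240, both GRCh38.
KRT8: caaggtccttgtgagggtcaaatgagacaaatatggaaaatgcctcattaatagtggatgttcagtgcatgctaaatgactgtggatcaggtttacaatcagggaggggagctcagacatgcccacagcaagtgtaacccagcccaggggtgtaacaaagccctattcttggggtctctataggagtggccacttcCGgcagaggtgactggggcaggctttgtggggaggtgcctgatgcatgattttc
VIM: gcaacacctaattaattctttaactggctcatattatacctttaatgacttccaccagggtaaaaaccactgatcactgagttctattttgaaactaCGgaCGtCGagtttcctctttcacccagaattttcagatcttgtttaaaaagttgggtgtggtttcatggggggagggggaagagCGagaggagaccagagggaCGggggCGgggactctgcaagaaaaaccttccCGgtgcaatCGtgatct

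The KRT8 sequence has 1 CG dinucleotide, and 6.06% of 35116 RefSeq promoters have fewer. It belongs to another start of KRT8 than the one in the rule. In GRCh38 it lies 22.4 kb from the KRT18 start, whereas the rule's KRT8 start is 43.8 kb from it in GRCh37. The H3K27ac peak of rank 159 spans 19.8 to 25.0 kb from the KRT18 start, a distance taken in GRCh37, and where this sequence falls in the peak lists was not determined. Whether the start behind the VIM sequence is the rule's VIM start was not determined. It has 8 CG dinucleotides, and 43.7% of promoters have fewer. The letters GGGCGG of a GC box occur once in it, counting both strands, and 0 times in the KRT8 sequence, against 42.6% of all promoters with a match. The letters TATAAA of a TATA box occur in neither sequence and in 10.7% of all promoters.

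VIM lacked each mark at its start. The nearest H3K27ac peak, chr10:17257708-17259059 with a signal value of 4.47 (percentile 61.4), ended 12.2 kb upstream. The nearest H3K4me3 peak, chr10:17242584-17244253 with a signal value of 21.2 (percentile 56.5), ended 27.02 kb upstream and overlapped an H3K27ac peak of 8.13. In RefSeq (GRCh38) the genes within 30 kb of VIM are its antisense gene VIM-AS1 and TRDMT1, which encodes an RNA methyltransferase. Which gene that distant H3K4me3 peak belongs to was not determined.

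The nearest H3K4me1 peak to VIM was a 297 bp peak that ended 1.299 kb upstream, with a signal value of 2.66 (percentile 20.5). The 6 H3K4me1 peaks of the VIM window had signal values of 2.07 to 2.99, all below the list's median of 3.42, and 0 of the 6 had a −log10 q-value of at least 5. Downstream of the start the next peak was 43.9 kb away for H3K4me1, 386.2 kb for H3K27ac and 357.7 kb for H3K4me3. The start thus lay in an H3K27ac gap of 398.5 kb, longer than 98.0% of the gaps between neighbouring peaks of that list. Long gaps hold most of the genome, however: 52.3% of all bases between H3K27ac peaks lay in gaps at least this long. A VIM start placed a few kb to either side would also lie outside H3K27ac and H3K4me3 peaks. One placed 1.299 to 1.595 kb upstream would lie in the H3K4me1 peak of 297 bp. No peak was called at the VIM start of the rule at this unknown depth, which is not a measurement of zero.

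**Figure D3:**
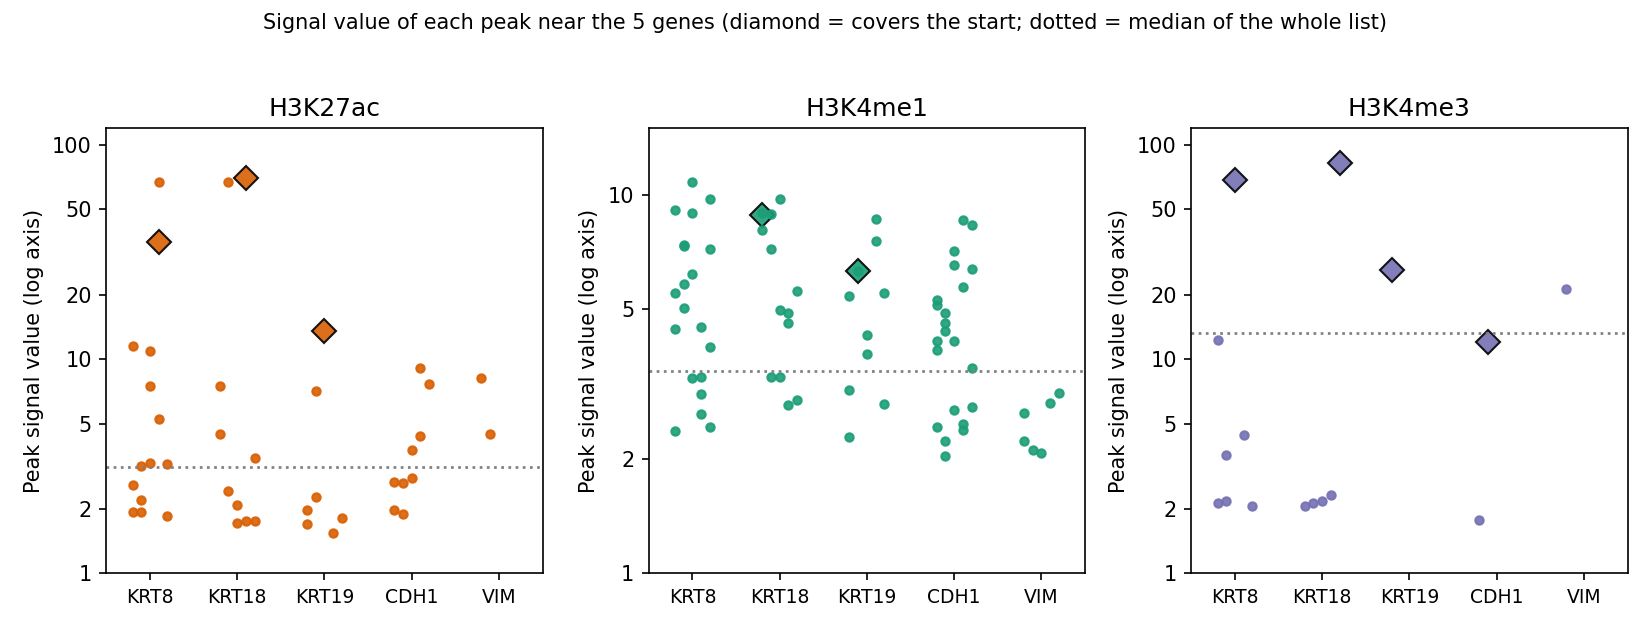
Signal value of each peak near the 5 genes, on a log axis, in 1 panel for each mark. Diamonds are peaks that cover the start, dots are other peaks and the dotted line is the median of the whole list. The H3K4me3 diamonds fall from KRT18 (82.6) over KRT8 and KRT19 to CDH1 (12.0), and the 6 VIM dots in the H3K4me1 panel are under the dotted line.

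Taken with all the peaks away from the starts, the members were not stronger than their lists for H3K27ac and H3K4me3. The median H3K27ac signal value of the 40 members was 2.98, beside 3.15 over the list, and for H3K4me3 it was 4.40, beside 13.3. For H3K4me1 the members' median was higher, 4.52 beside 3.42. Among H3K27ac members 3 of 40 (7.50%, 95% Wilson interval 2.58 to 19.9) were in the strongest 10% of the list, beside 10.0% of the list. These were the peaks over the KRT8 and KRT18 starts and the one between them. Among H3K4me3 members 2 of 13 were in the strongest 10% (10.0% of the list), again at the KRT8 and KRT18 starts. Among H3K4me1 members 18 of 70 were (25.7%, 16.9 to 37.0), beside 10.0% of that list. They lay in the windows of all genes but VIM, 7 at KRT8, 6 at KRT18, 2 at KRT19 and 5 at CDH1, with peaks in 2 windows counted in each.

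Mark combinations were read against the whole lists. Of the 40 H3K27ac members, 39 overlapped H3K4me1, beside 87.4% of the list, and 9 (22.5%, 12.3 to 37.5) overlapped H3K4me3, beside 31.7%. The 1 member that overlapped neither methylation, beside 8.52% of the list, lay at the far end of the KRT18 gene. The 30 members that overlapped H3K4me1 but not H3K4me3, the combination of enhancers, made up 75.0% (59.8 to 85.8), beside 59.8%. Of the H3K4me3 members, 12 of 13 overlapped H3K27ac (77.5% of the list) and 13 of 13 overlapped H3K4me1 (92.7%). Shares over so few peaks, many of them neighbours, are a description.

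H3K4me1 differed in how often it came with acetylation. Over all windows 29 of 70 H3K4me1 peaks overlapped H3K27ac (41.4%, 30.6 to 53.1), beside 33.4% of the list, and 15 of 70 overlapped H3K4me3, beside 18.9%. The count of those with H3K27ac was 12 of 20 at KRT8 and 9 of 14 at KRT18. It was 3 of 11 at KRT19, 6 of 22 at CDH1 and 2 of 6 at VIM. The 3 H3K4me1 peaks in the windows of both KRT8 and KRT18 all overlapped H3K27ac and count in each. At KRT19, 8 of 11 H3K4me1 peaks overlapped neither other mark (72.7%, 43.4 to 90.3), and at CDH1 15 of 22 (68.2%, 47.3 to 83.6). At VIM it was 4 of 6 (66.7%, 30.0 to 90.3). It was 6 of 20 at KRT8 (30.0%, 14.5 to 51.9) and 5 of 14 at KRT18 (35.7%, 16.3 to 61.2). The list's share was 61.6%. The intervals treat neighbouring peaks of 1 pooled list as independent, so they do not serve as a test against that share.

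The strongest peak with the enhancer combination in the KRT8 window was chr12:53277865-53279341, 19527 to 21003 bp downstream of the start, with an H3K27ac signal value of 10.97 (percentile 78.7). In the KRT19 window it was chr17:39677622-39679282, 5.28 to 6.94 kb downstream, with 7.14 (percentile 71.5). In the CDH1 window it was the peak 2.01 kb past the start, already described, with 9.12 (percentile 75.7). VIM had 1 such peak, with 4.47. None of these reached the strongest 10% of the H3K27ac list. That depends on the overlap rule of at least 1 base. The H3K27ac peak of rank 159 between KRT8 and KRT18 was left out for 3 small H3K4me3 peaks over 24.3% of its width. Were 50% of the width required for overlap, that peak would have the combination.

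**Figure D4:**
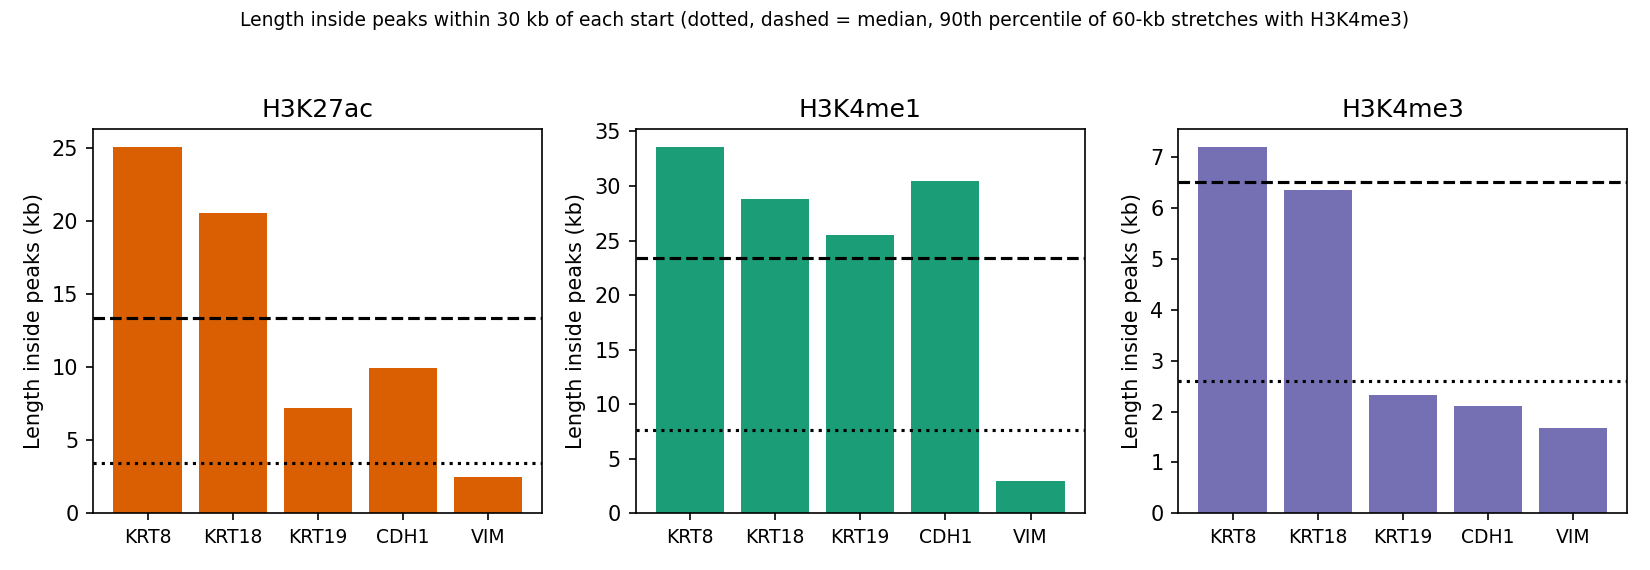
Length in kb inside peaks within 30 kb of each start, in 1 panel for each mark. The dotted and dashed lines are the median and the 90th percentile of the 60 kb stretches of the genome that hold an H3K4me3 peak. The bars of H3K4me1 pass the dashed line at the 4 epithelial genes, those of H3K27ac at KRT8 and KRT18 only, and the VIM bars stay under the dotted lines. The KRT8 and KRT18 windows overlap, and peaks in the overlap count in both bars.

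Equal windows of 30 kb to either side of the start allowed a comparison of length. H3K27ac peaks covered 25.0 kb around KRT8, 20.5 kb around KRT18, 9.96 kb around CDH1, 7.20 kb around KRT19 and 2.48 kb around VIM. The KRT8 and KRT18 windows overlap, so their lengths are not independent. In both lengths count 2 H3K27ac peaks, 3378 and 5207 bp wide, and 3 peaks each of H3K4me1 and H3K4me3. Each of the 5 windows held at least 1 peak of each mark. When the genome was divided into 60 kb stretches, 34.9% held an H3K27ac peak, 56.1% an H3K4me1 peak and 28.2% an H3K4me3 peak. In the 14278 stretches with H3K4me3 the median H3K27ac length was 3.46 kb. H3K4me1 peaks covered 33.5 kb around KRT8, 30.5 kb around CDH1, 28.8 kb around KRT18, 25.5 kb around KRT19 and 2.96 kb around VIM, beside a median of 7.61 kb. By H3K4me1 length, then, CDH1 stood above KRT18, although it was well below it in H3K27ac and H3K4me3. H3K4me3 peaks covered 7.18 kb around KRT8 and 6.35 kb around KRT18, but 2.33 kb around KRT19, 2.11 kb around CDH1 and 1.67 kb around VIM, beside a median of 2.60 kb.

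Long stretches without H3K27ac or without H3K4me3 bordered the windows of KRT8, KRT19, CDH1 and VIM, at KRT8 and CDH1 on the lower-coordinate side only. In RefSeq (GRCh38), 25 other keratin genes of chromosome 12 lie on the lower-coordinate side of KRT8, where the type II keratin genes are clustered, and KRT18 is the only one on the other side. On the lower-coordinate side of KRT8 the next H3K27ac peak came after a gap of 592.1 kb, chr12:52675384-53267440, which was longer than 98.7% of the gaps in that list. It held 15 whole H3K4me1 peaks and no whole H3K4me3 peak. On the KRT18 side the next H3K27ac peak beyond the window came after 7.67 kb. KRT19 lies within the type I keratin cluster, with 23 keratin genes on its lower side and 4 on its upper side in RefSeq. The H3K27ac gaps beside its window's peaks were 101.8 kb and 95.9 kb long. They were shorter than the H3K27ac gap of 192.0 kb upstream of the CDH1 peaks and those of 125.0 kb and 398.5 kb beside the VIM peaks. The H3K27ac gap downstream of the CDH1 peaks, 24.9 kb long, was shorter than either gap beside KRT19. The H3K4me3 gaps beside the KRT19 peak were 588.8 kb and 136.5 kb long, longer than 96.0% and 82.5% of the gaps in that list. These gaps held 21 and 6 whole H3K27ac peaks, and 6 of the 7 H3K27ac members near KRT19 were among them. Which of the clustered genes fall into the gaps was not determined, since their GRCh37 positions were not used here. The percentiles of these gaps count gaps and not bases. Gaps at least as long as the H3K27ac gap at VIM held 52.3% of all bases between H3K27ac peaks. For the H3K4me3 gap of 384.7 kb at VIM the share was 55.9% of the bases between H3K4me3 peaks.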

How the data were processed

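The deposited files were 3 narrowPeak lists, and their names say that each pools the replicates of 1 mark. MACS2 and the build hg19 (GRCh37) are named in the submitters' processing notes, and the version, threshold, aligner and use of the control are not given in the sources used here. The signal value of each peak was deposited by the authors, and its reference is not given either. The deposited −log10 q-value was used for 1 alternative only. Depth per library is unknown.

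Members were peaks with at least 1 base in a window, and marks overlapped where they shared at least 1 base. Percentiles, ranks, gaps and 60 kb stretches, tiled from the first base of each chromosome, were taken over chromosomes 1 to 22 and X. No test was run. Named peaks were those over or nearest each start, the strongest in each window and the strongest with H3K4me1 but not H3K4me3; others were chosen after their values were seen. The members and lists were chosen with earlier results of these data known. The 500 peaks nearest in signal rank, the equal windows, the gaps and the promoter letters were added once values were known. Other epithelial, mesenchymal and cell type marker genes, planned only with a GRCh37 annotation, were not analysed. The interval functions were tested on simulated data. Promoters and gene order came from RefSeq (GRCh38.p14), and no coordinate was converted between builds. Python 3.11.15, numpy 2.4.6, scipy 1.17.1 and matplotlib 3.10.9 were used.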

Additional observations from a re-analysis of the deposited data

How the results depend on the processing

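No paired analysis was possible because each mark has 1 pooled list without replicate values, and leaving out a replicate was not possible for the same reason. Over 8 counts, 40 alternative values were computed, of which 27 stayed within 1.5 times the main count and 13 did not. Windows around the starts only were chosen after seeing the data. With the stronger 50% of each list, 20 H3K27ac, 45 H3K4me1 and 4 H3K4me3 peaks were left near the genes, and 4 H3K27ac peaks overlapped H3K4me3 and 15 overlapped H3K4me1 but not H3K4me3. Within 15 kb the corresponding counts were 22, 38, 7, 5 and 16. Joining peaks within 1000 bp left 23 H3K27ac and 37 H3K4me1 regions. These falls follow from how the alternatives are built. With a peak allowed within 1000 bp of the start, H3K4me1 was present at 4 of 5 starts in place of 2. The CDH1 start was covered by H3K4me3 in the main count and not in the stronger 50% of that list. The VIM start was covered by no mark under any alternative run, including a peak within 1000 bp. Depth limits the weakest peaks and the absence of peaks.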

Other observations

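The 30 kb limit decided little at 1 side and more at another. The KRT19 window missed an H3K4me1 peak that lay 30.8 kb from the start, with a signal value of 3.02, and the VIM window just held one 29.5 kb away, with 2.24. Beyond KRT18 the next H3K4me3 peak, 52.1 kb past the gene at chr12:53398777-53403364, had a signal value of 81.5, close to that of the KRT18 start. Upstream of KRT19, a row of 4 narrow H3K27ac peaks lay 19.40 to 21.05 kb from the start, each 251 to 299 bp wide with signal values of 1.54 to 2.27, and all of them lay inside 1 H3K4me1 peak of 3945 bp.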
